A study of Mus musculus with 10 samples.

Results

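The vascular endothelial growth factor (VEGF) family was examined in RNA from the infundibulum, the ovarian end of the oviduct, of C57BL/6 mice aged 8 to 10 weeks. The family was taken as 10 genes found by symbol, 5 ligands (Vegfa, Vegfb, Vegfc, Vegfd and Pgf) and 5 receptors and co-receptors (Flt1, Kdr, Flt4, Nrp1 and Nrp2), of 54256 genes in the deposited table. Wild-type mice received recombinant murine prolactin (rmPRL), a pituitary hormone, or, as controls, saline, over 7 days. There were 5 libraries per group, each from 4 infundibula of 2 animals, so replicates were separate pools of animals. The labels give proestrus as the estrous stage of every library except rmPRL 2, which is given as diestrus. The labelled tissue showed its epithelial markers in every library: Ovgp1, a glycoprotein that oviduct secretory cells release, ran from 4923 to 10134 TPM, and Foxj1, the regulator of multiciliated cells, from 552 to 821 TPM.

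VEGF ligands are secreted dimers that guide the growth and upkeep of vessels. Vegfa binds the receptor tyrosine kinases Flt1 (VEGFR1) and Kdr (VEGFR2), and most of its effect on endothelial growth and permeability runs through Kdr, while Flt1 binds it tightly but signals weakly and can act as a decoy. Vegfb and Pgf bind Flt1 alone among these kinases, Vegfc and Vegfd act on lymphatic vessels through Flt4 (VEGFR3), and the neuropilins Nrp1 and Nrp2 are co-receptors that also bind class 3 semaphorins. In the female reproductive tract, vessels grow and regress with the ovarian cycle.

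The values were TPM, relative transcript levels that allow for transcript length and share one total, here 999445 to 999607 in each library. They carry no read counts, so the depth behind each value, and with it the counting error of low genes, is unknown. Means are given ± SD over the libraries of a group (n = 5 each). Between 15975 and 16615 genes stood at 1 TPM or more in a library. Libraries saline 4 and rmPRL 2 stood apart in genes of ovarian steroid synthesis. Cyp11a1, the enzyme of its first step, reached 135 TPM in the former and 125 TPM in the latter, while its median over the 10 libraries was 4.71 TPM. Values without both libraries are given below for the members that could be fitted. Mitochondrial transcripts made up 4.99% to 5.69% of TPM in saline and 5.79% to 7.01% in rmPRL, with groups that did not overlap. Their part in the differences below was not tested beyond a rescaling of totals without them and the 50 most abundant genes.

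No member passed the test of rmPRL against saline, although 9 of 10 had a higher mean in rmPRL. The test was limma on log2(TPM + 1) over the 16131 genes that reached 1 TPM in 5 or more libraries, two-sided, with Benjamini-Hochberg adjusted p under 0.05 over all of them. All 10 members met this filter. Of all genes tested, 4 passed (0.0248%), 3 of them higher (0.0186%) and 1 lower (0.00620%). In whole tissue, fewer cells of a type and less RNA per cell cannot be told apart. At an unadjusted p under 0.05, 3 members (Vegfa, Pgf and Kdr) were higher and 0 lower, where 6.14% of all genes were higher and 16.0% differed in either direction. The median log2 difference was 0.24 over the members and -0.03 over all genes tested, of which 43.5% had a higher mean in rmPRL. The members' median was 0.090 without saline 3, with 8 of 10 higher, and 0.17 without rmPRL 2, with 7 of 10 higher. It was 0.030 with a blood endothelium marker score as a covariate and -0.024 with a fibroblast marker score. Without saline 4 and rmPRL 2 the log2 difference was 0.20 for Vegfa, 0.44 for Pgf, -0.090 for Vegfb, 0.023 for Vegfd, 0.25 for Flt1, 0.41 for Flt4 and 0.16 for Nrp1. With totals rescaled without mitochondrial genes and the 50 most abundant genes it was 0.24 for Vegfa, 0.47 for Pgf and 0.48 for Kdr.

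The sequences just upstream of Vegfa, Flt1 and Kdr are shown because these are the main ligand and the kinases it binds. They are the 250 bases before the transcription start in RefSeq on GRCm38.p6, read 5′ to 3′ on the gene's strand: chr17:46032378-46032627 for Vegfa, chr5:147726012-147726261 for Flt1 and chr5:75978456-75978705 for Kdr, all on the minus strand. Capitals mark the GC box GGGCGG, on either strand, the motif bound by Sp1-type factors.
Vegfa: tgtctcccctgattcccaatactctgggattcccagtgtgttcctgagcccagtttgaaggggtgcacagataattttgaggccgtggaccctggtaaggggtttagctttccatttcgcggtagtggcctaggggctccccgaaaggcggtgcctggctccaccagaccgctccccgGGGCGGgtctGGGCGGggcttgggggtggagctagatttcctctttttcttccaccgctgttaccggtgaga
Flt1: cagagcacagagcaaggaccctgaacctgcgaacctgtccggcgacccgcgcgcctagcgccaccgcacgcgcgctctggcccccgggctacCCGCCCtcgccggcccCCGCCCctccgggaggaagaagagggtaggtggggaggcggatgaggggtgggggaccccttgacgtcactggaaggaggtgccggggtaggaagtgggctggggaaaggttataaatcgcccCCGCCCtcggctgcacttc
Kdr: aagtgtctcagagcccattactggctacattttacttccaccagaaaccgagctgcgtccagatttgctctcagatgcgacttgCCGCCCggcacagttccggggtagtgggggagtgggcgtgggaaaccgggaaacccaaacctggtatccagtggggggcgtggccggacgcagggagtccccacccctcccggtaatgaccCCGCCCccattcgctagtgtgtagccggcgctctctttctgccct
The Vegfa window held 2 GC boxes, that of Flt1 held 3 and that of Kdr held 2, and GC content was 59.2%, 70.4% and 61.6%. Over the first listed start of each member, 9 of 10 windows held a GC box, against 32.7% of all 32851 promoter windows of that length. The exception was Vegfd. The comparison windows were not matched to those of the members in GC content or in expression. ACGTG, a form of the core of the hypoxia response element, and the STAT motif TTCNNNGAA were in 0 of 10 members' windows on either strand. They were in 16.6% and 7.02% of all windows. As neither occurred, no motifs of different kinds that were searched overlapped. These letters being absent from the window says nothing of more distant elements. The form GCGTG of the hypoxia core was not searched, and on either strand it is present in the printed Flt1 and Kdr windows.

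Vegfa (ENSMUSG00000023951.17, GRCm38 chromosome 17, 46016993 to 46032369, minus strand), the main growth factor of blood vessels, was the most abundant member. It stood at 86.1, 86.7, 71.3, 77.3 and 81.1 TPM in saline libraries 1 to 5. In rmPRL libraries 1 to 5 it stood at 88.7, 95.7, 92.6, 103 and 88.9 TPM. Every rmPRL library lay above every saline library, though the step from the highest saline to the lowest rmPRL library was smaller than the SD of either group. The means were 80.5 ± 6.42 and 93.9 ± 6.07 TPM, a ratio of 1.17. The log2 difference was 0.22 (SE 0.07, 95% interval 0.07 to 0.37), with a limma adjusted p of 0.206. Groups that did not overlap in this direction were found for 1.49% of all genes tested, 241 genes, and in either direction for 3.07%. Among the members this held for 1 of 10.

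Pgf (ENSMUSG00000004791.7, chromosome 12, 85166635 to 85177790, minus strand), placental growth factor, was much lower and had the largest ratio of group means among the members. It was at 2.61, 1.81, 1.39, 1.54 and 1.23 TPM in saline libraries 1 to 5, and at 2.55, 2.23, 2.84, 2.54 and 2.79 TPM in rmPRL libraries 1 to 5. The groups overlapped through saline library 1 alone, and the other 4 saline libraries lay below all 5 rmPRL libraries. The means were 1.72 ± 0.542 and 2.59 ± 0.241 TPM, a ratio of 1.51. The log2 difference was 0.42 (SE 0.13, 95% interval 0.13 to 0.71, limma adjusted p = 0.210). Without saline library 1 it was 0.53 (limma adjusted p = 0.0794). The difference was 0.61 with a pseudocount of 0.1 and 0.18 with a pseudocount of 5. With libraries weighted by how closely they follow their group (limma array weights), Pgf alone among the members passed, with a log2 difference of 0.55 and a limma adjusted p of 0.0455; over all genes 270 passed under that setting.

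Vegfb, the other ligand restricted to Flt1, had the narrowest range relative to its level and was the only member with a lower mean in rmPRL. It ran from 32.9 to 41.8 TPM in saline and from 33.1 to 38.8 TPM in rmPRL, and the groups overlapped throughout. The means were 36.7 ± 3.68 and 35.3 ± 2.20 TPM. The log2 difference of -0.05 had a 95% interval from -0.21 to 0.11 (limma adjusted p = 0.729), within the spread between libraries. Vegfa made up 63.2% ± 1.06 of the summed TPM of the 5 ligands in saline and 66.6% ± 1.97 in rmPRL, while Vegfb made up 28.9% ± 1.97 and 25.1% ± 2.11. These shares are sums over chosen members and were not tested.

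The lymphatic ligands differed from each other in which libraries were high. Vegfd was at 9.92, 6.92, 5.41, 5.67 and 8.07 TPM in saline libraries 1 to 5, and at 6.57, 8.25, 7.74, 8.10 and 7.91 TPM in rmPRL. Its highest and lowest values were both in saline libraries, and the spread was narrower in rmPRL, with a coefficient of variation of 8.65% against 25.8% in saline. The means were 7.20 ± 1.86 and 7.71 ± 0.668 TPM (log2 difference 0.11, limma adjusted p = 0.706). For Vegfd it moved to 0.032 without saline library 3, 0.046 without saline 4 and 0.22 without saline 1. Vegfc, the lowest member, was at 1.15, 1.26, 0.638, 2.02 and 1.10 TPM in saline libraries 1 to 5 and at 0.938, 2.90, 0.832, 0.949 and 1.41 TPM in rmPRL. The highest library of each group was the one with high steroid-making genes, saline 4 and rmPRL 2. Its log2 difference was 0.07 (95% interval -0.41 to 0.56, limma adjusted p = 0.884) and -0.12 without rmPRL library 2. It was -0.030 without saline 3 and 0.19 without saline 4, and 0.14, 0.16 and 0.14 without rmPRL 1, 3 and 4. With both of those libraries left out, Vegfc no longer met the filter.

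Kdr (ENSMUSG00000062960.10, chromosome 5, 75932827 to 75978458, minus strand), the main signalling receptor of Vegfa, had the largest log2 difference of the members with a pseudocount of 1. With a pseudocount of 0.1 the log2 difference was 0.50 for Kdr, below that of Pgf at 0.61 and of Flt4 at 0.55. It stood at 7.95, 5.73, 4.36, 8.08 and 6.90 TPM in saline libraries 1 to 5, and at 7.19, 12.2, 7.18, 9.34 and 10.9 TPM in rmPRL. Above the highest saline library lay 3 of 5 rmPRL libraries, and rmPRL libraries 1 and 3 lay within the saline range. The means were 6.60 ± 1.57 and 9.37 ± 2.23 TPM, a ratio of 1.42. The log2 difference was 0.45 (SE 0.18, 95% interval 0.05 to 0.84, limma adjusted p = 0.272), 0.35 without rmPRL library 2 and 0.42 without saline 4 and rmPRL 2.

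Flt1 (ENSMUSG00000029648.13, chromosome 5, 147561604 to 147726011, minus strand) was at 8.80, 5.45, 3.38, 6.19 and 8.44 TPM in saline libraries 1 to 5, and at 6.39, 7.76, 6.53, 10.2 and 7.42 TPM in rmPRL. The groups overlapped widely, with rmPRL 4 highest and saline 3 lowest. The means were 6.45 ± 2.23 and 7.66 ± 1.52 TPM, and the log2 difference of 0.26 (95% interval -0.20 to 0.72, limma adjusted p = 0.549) was 0.08 without saline library 3 and 0.16 without rmPRL library 4. The genes of Vegfa's kinases were at like levels. The ratio of Kdr to Flt1 was 1.07 ± 0.221 in saline and 1.24 ± 0.274 in rmPRL, with a range over libraries from 0.817 to 1.57. The values are per gene and do not separate transcripts, of which 6 are annotated for Flt1 and 3 for Kdr.

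**Figure D1:**
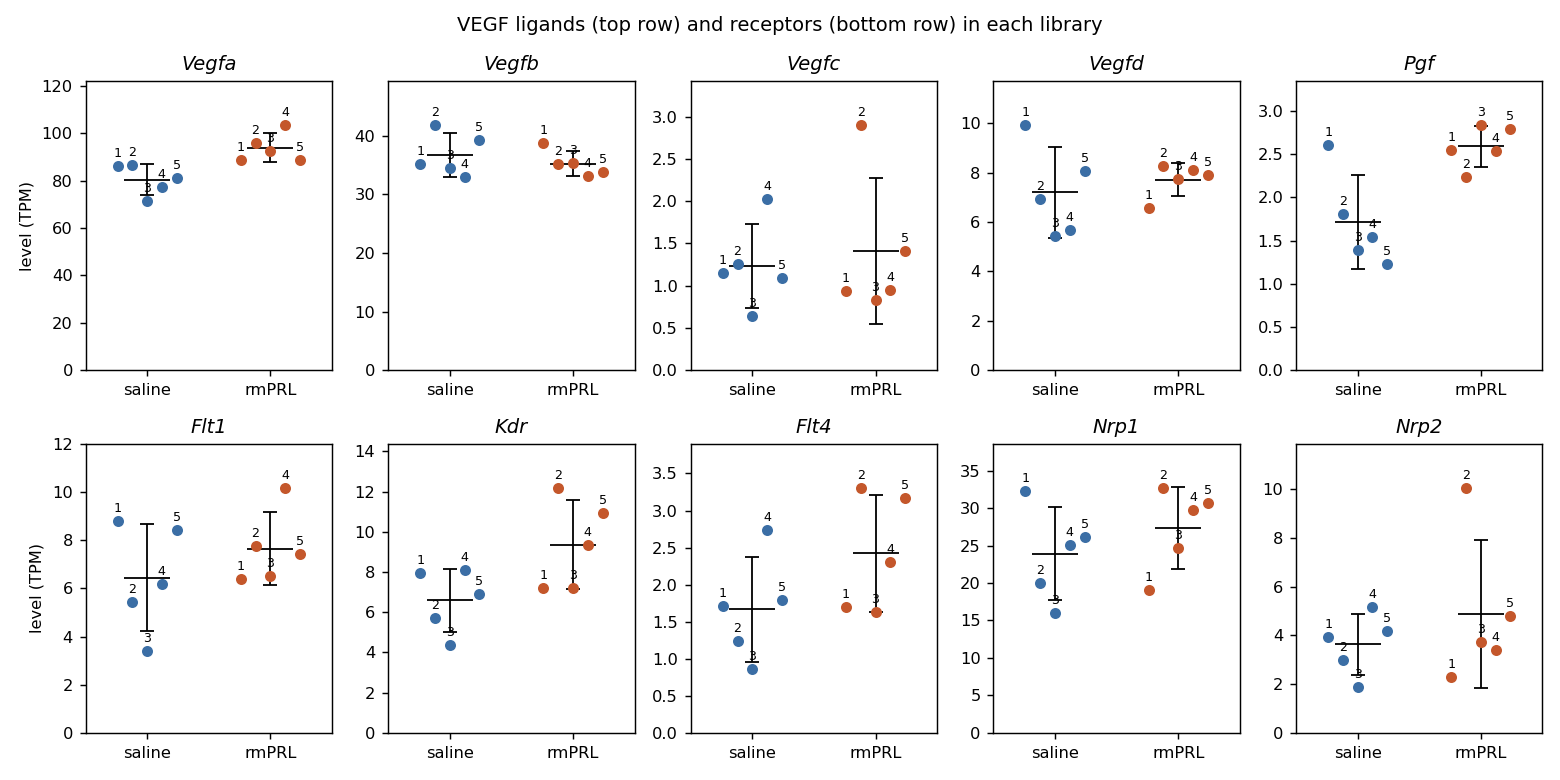
Level in TPM (vertical axes, starting at 0) of the 5 ligands (top) and 5 receptors (bottom) in each library, numbered by replicate; the horizontal bar is the mean and the whiskers the SD of 5 libraries. Vegfa is the only member whose groups do not overlap, Pgf overlaps through saline 1, and rmPRL 2 is the highest library for Vegfc and Nrp2.

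Flt4, the receptor of Vegfc and Vegfd, stood at 1.71, 1.24, 0.863, 2.74 and 1.79 TPM in saline libraries 1 to 5 and at 1.70, 3.31, 1.63, 2.30 and 3.17 TPM in rmPRL. The groups overlapped, with rmPRL 2 and rmPRL 5 above all saline libraries. The means were 1.67 ± 0.708 and 2.42 ± 0.791 TPM (log2 difference 0.37, 95% interval -0.08 to 0.82, limma adjusted p = 0.387). Nrp1, a co-receptor that strengthens the binding of Vegfa to Kdr, was the most abundant receptor, from 16.0 to 32.3 TPM in saline and from 19.1 to 32.7 TPM in rmPRL. Both ranges nearly coincided (means 23.9 ± 6.20 and 27.4 ± 5.51 TPM, log2 difference 0.20, limma adjusted p = 0.598). The log2 difference of Nrp1 was 0.075 without saline 3, 0.13 without rmPRL 2 and 0.32 without either saline 1 or rmPRL 1 alone. Nrp2, the co-receptor paired with Flt4 on lymphatic vessels, was at 3.92, 3.00, 1.88, 5.17 and 4.18 TPM in saline libraries 1 to 5 and at 2.31, 10.1, 3.75, 3.42 and 4.80 TPM in rmPRL. Apart from rmPRL 2, the rmPRL libraries lay within the saline range. Its log2 difference of 0.26 (95% interval -0.41 to 0.93, limma adjusted p = 0.681) was -0.00061 without rmPRL 2, 0.10 without saline 3, 0.43 without rmPRL 1 and 0.11 without saline 4 and rmPRL 2. Nrp1 shares 80 exonic bases with Mir1903 on its strand, Nrp2 overlaps Gm37121 and Gm29083 outside exons, and the other 8 members overlap no annotated gene.

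By mean TPM over all 10 libraries the order was Vegfa (87.2), Vegfb (36.0), Nrp1 (25.6), Kdr (7.98), Vegfd (7.46), Flt1 (7.05), Nrp2 (4.25), Pgf (2.15), Flt4 (2.05) and Vegfc (1.32). Vegfa exceeded Vegfb, Vegfb exceeded Nrp1 and Nrp1 exceeded Kdr in 10 of 10 libraries, with ranges that did not overlap. Kdr exceeded Vegfd in 5 of 10 libraries, Vegfd exceeded Flt1 in 7 and Pgf exceeded Flt4 in 6, so these neighbours did not differ beyond their spread. Flt1 exceeded Nrp2, Nrp2 exceeded Pgf and Flt4 exceeded Vegfc in 9 of 10 libraries each, with overlapping ranges.

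The members were often lowest or highest in the same libraries. Saline 3 was the lowest library for 8 of 10 members, and rmPRL 2 the highest for 5 of 10. Over all genes tested, saline 3 was lowest for 13.5% and rmPRL 2 highest for 15.7%. Likeness between genes was measured as the sum of absolute rank differences over the 10 libraries, from 0 for the same order to 50 for the reverse. The nearest members were Kdr and Flt4, at 8, followed by Vegfc with Nrp2 and Vegfd with Flt1, both at 10. Vegfb lay farthest from the receptors, at 46 from Kdr and 44 from Flt4 and from Nrp1. Among 11417 other genes with a mean of at least 5 TPM, 106 were as near to Kdr as Flt4 was. The nearest to Kdr were Bud31, Rcn3 and Emp3, each at 2, and the nearest to Flt1 were Flna, Cdk16 and Pip5k1a, each at 4. Trim35 and Usp42, at 4, and Serpinh1, at 6, were nearest to Flt4. Taf9b, at 6, and Hand2os1 and Bcs1l, at 8, were nearest to Vegfa. The members nearest to Vegfa, Vegfd and Kdr, were at 20, and 948 of the other genes were as near.

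**Figure D2:**
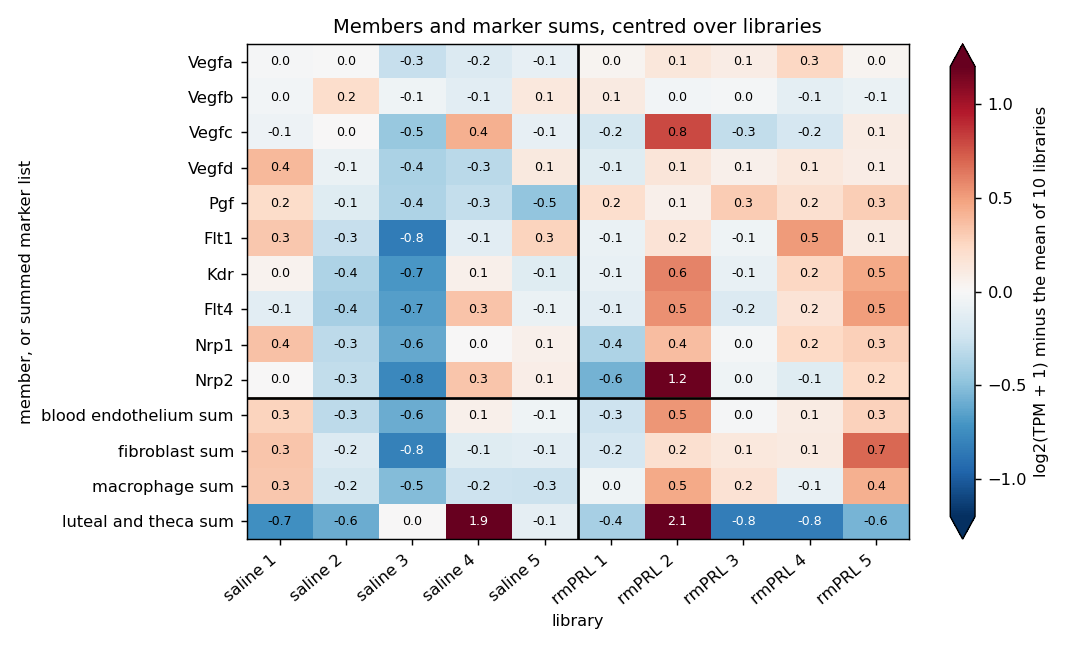
Log2(TPM + 1) of each member, and of the summed TPM of 4 marker lists (endothelium without Sox17), minus its mean over the 10 libraries (columns; colour and number, colour scale ending at ±1.2). The receptors and the endothelium, fibroblast and macrophage sums are all low in saline 3, and the luteal and theca sum stands out in saline 4 and rmPRL 2 alone.

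Blood endothelium was present in every library: of 20 markers none was at 0, and Pecam1, a junction protein of endothelial cells, ran from 13.5 to 28.5 TPM. Of these 20 markers, 17 had a higher mean in rmPRL, 3 at an unadjusted p under 0.05 (Plvap, Robo4 and Esam), and 0 passed; their median log2 difference was 0.17. Over all genes tested, 43.5% had a higher mean and 6.14% were higher at an unadjusted p under 0.05. Their sum ran from 257 to 405 TPM in saline and from 326 to 419 TPM in rmPRL. Sox17, a member of that list, stood at 72.2 to 133 TPM and was lowest in rmPRL 2, where 14 of the 20 markers were highest, so the sum was also taken without it. Saline 3 was lowest for 15 of the 20.

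Kdr and Flt1 were also set against these markers, as a description. Per 100 TPM of the 19 markers without Sox17, Flt1 had 2.83 ± 0.575 TPM with saline and 2.94 ± 0.670 TPM with rmPRL, with groups that overlapped widely. Kdr per 100 TPM of them was 2.76, 2.97, 2.76, 3.24 and 2.99 in saline libraries 1 to 5, and 3.58, 3.52, 3.03, 3.65 and 3.77 in rmPRL. All rmPRL libraries but rmPRL 3 lay above every saline library. The ratio of Kdr to Pecam1 alone overlapped more, from 0.324 to 0.427 in saline and from 0.363 to 0.459 in rmPRL, with only rmPRL 5 above every saline library. With the mean log2(TPM + 1) of the 20 markers as a covariate, the log2 difference was 0.23 for Kdr (limma adjusted p = 0.387), 0.06 for Flt1 (0.918), -0.03 for Nrp1 (0.914) and 0.19 for Vegfa (0.391). In that fit 6 of 10 members were on the higher side, counting Vegfd at 2.5e-05.

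**Figure D3:**
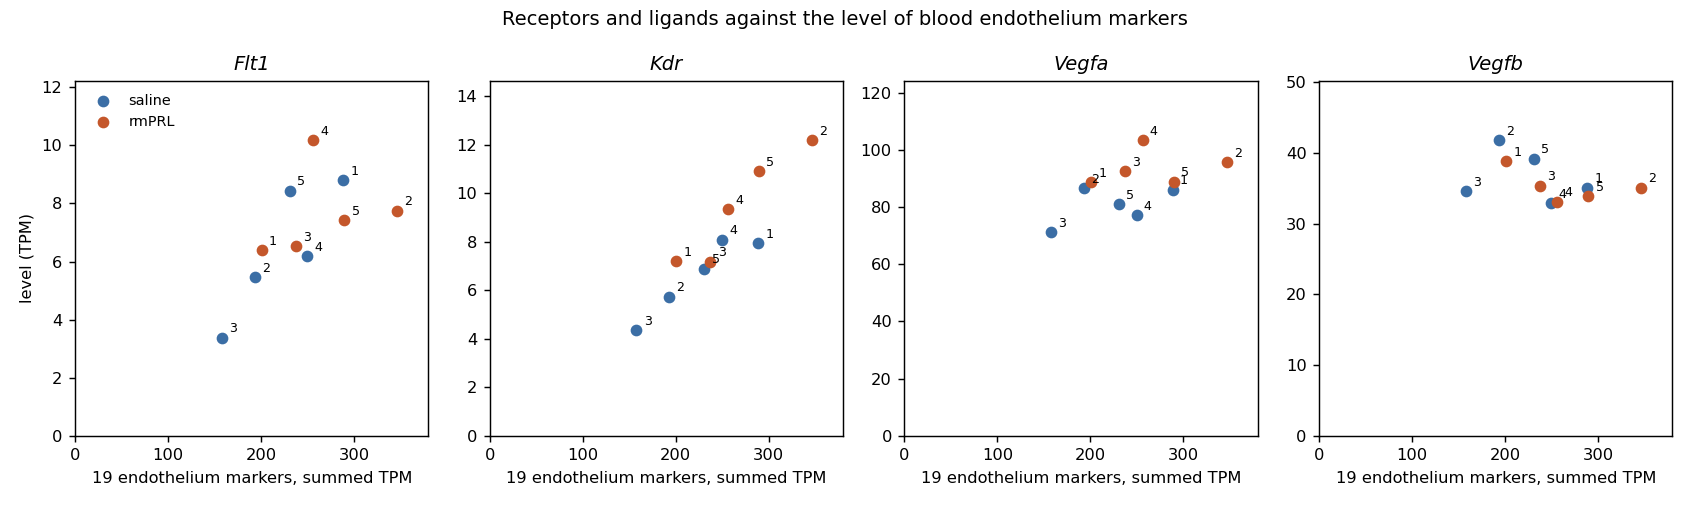
Level in TPM of Flt1, Kdr, Vegfa and Vegfb (vertical axes) against the summed TPM of 19 blood endothelium markers (horizontal axes, Sox17 left out) in each library, numbered by replicate. Flt1, Kdr and Vegfa are lowest in saline 3, which has the lowest marker sum. Vegfb stays between 32.9 and 41.8 TPM across the whole range of the markers.

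Stromal and immune markers also had mostly higher means in rmPRL. Among all genes tested, 43.5% had a higher mean and 6.14% were higher at an unadjusted p under 0.05. Of 13 fibroblast markers 12 had a higher mean in rmPRL, their sum ran from 931 to 2058 TPM in saline and from 1415 to 2632 TPM in rmPRL, none was at 0, and 0 passed. With their score as a covariate, 4 of 10 members were on the higher side. The log2 difference was then 0.17 for Kdr (limma adjusted p = 0.747), -0.02 for Flt1, 0.17 for Vegfa and 0.32 for Pgf (0.620 for both). All 11 macrophage markers had higher means in rmPRL, including 6 with an unadjusted p below 0.05; the list summed to 203 to 364 TPM with saline and 273 to 399 TPM with rmPRL. All 9 smooth muscle markers were also higher in the mean, with sums of 1052 to 3065 TPM against 1840 to 3079 TPM. So were 6 of 9 pericyte markers (62.4 to 113 TPM against 69.9 to 103 TPM) and all 6 adipocyte markers tested (35.4 to 162 TPM against 29.5 to 336 TPM). Of 7 lymphatic endothelium markers tested, 6 were higher, with sums of 387 to 555 TPM against 423 to 608 TPM. In limma 0 markers passed in any of these lists, and at an unadjusted p under 0.05 there were 1 fibroblast and 2 lymphatic markers on the higher side, 1 pericyte marker on the lower side (Notch3, 12.7 ± 0.708 and 11.2 ± 1.03 TPM) and 0 smooth muscle or adipocyte markers. Of the lymphatic markers, Prox1, which sets lymphatic identity, was at 0.144 to 0.565 TPM, highest in rmPRL 2, and Stab2 did not exceed 0.149 TPM, while Gja1 and Pdpn, which other cell types also express, were the most abundant of the list. The part of cell composition in the members' differences was not tested beyond these fits.

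**Figure D4:**
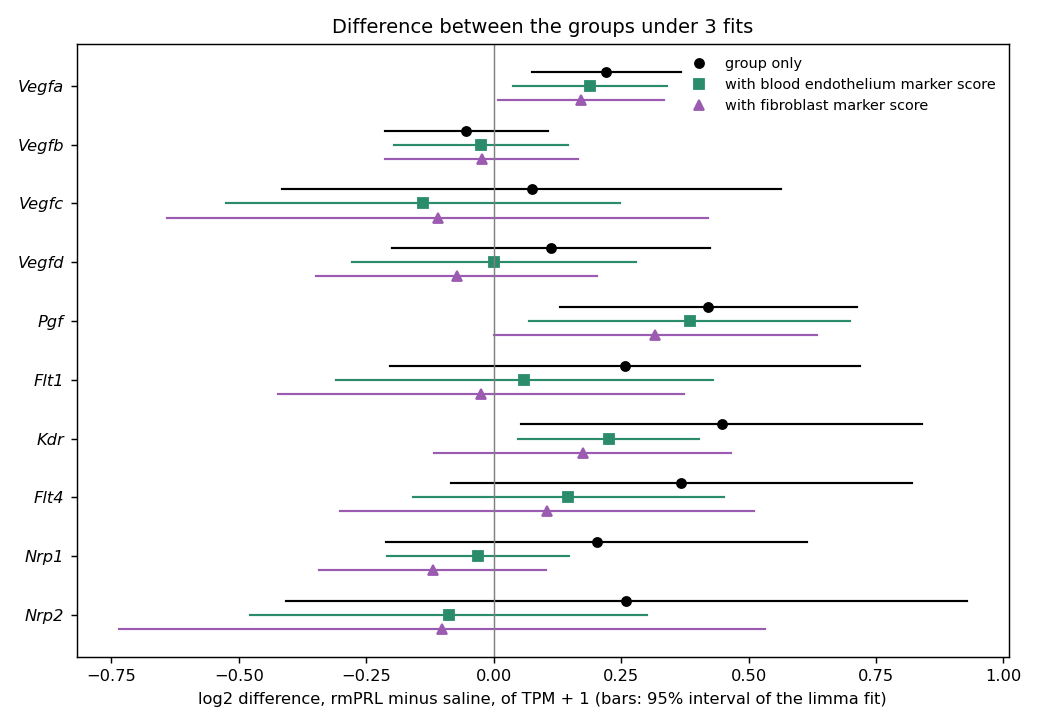
Log2 difference of TPM + 1, rmPRL minus saline (horizontal axis), of each member with its 95% interval in the limma fit, with group only (circles) and with the blood endothelium (squares) or fibroblast (triangles) marker score as a covariate. Kdr goes from 0.45 to 0.23 and 0.17, and Vegfa goes from 0.22 to 0.19 and 0.17. No member passes the threshold in these fits.

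Epithelial markers had mostly lower means. Among all 16131 genes tested, 9120 had a lower mean. At an unadjusted p under 0.05, 1598 of all genes were lower and 990 higher. Of 8 secretory epithelium markers 7 had a lower mean in rmPRL, including 3 with an unadjusted p below 0.05, and of 10 multiciliated markers 8 had a lower mean. Of 8 mesothelium markers 5 were higher. Luteal and theca markers were higher for 2 of 5 tested, granulosa markers for 3 of 4 and blood markers for 4 of 5. In limma 0 passed in any of these lists. At an unadjusted p under 0.05, 1 multiciliated marker was lower, 2 mesothelium markers were higher and 0 luteal, granulosa or blood markers differed. The luteal and theca markers summed to 427 TPM for saline 4 and 494 TPM for rmPRL 2, and to between 62.5 and 112 TPM for the other 8 libraries. With that list's score as a covariate the log2 difference was 0.48 for Kdr (limma adjusted p = 0.209) and 0.22 for Vegfa (0.193).

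Genes of oxygen sensing, a known control of Vegfa, were divided between directions. Among all genes tested, 43.5% had a higher mean and 16.0% had an unadjusted p under 0.05. Of 10 oxygen sensors and hypoxia factors, 5 were higher and 5 lower in the mean, and 0 passed in limma, with 2 higher and 1 lower at an unadjusted p under 0.05. Vhl, which marks hypoxia factors for breakdown, stood at 17.9 ± 0.776 TPM with saline and 20.3 ± 0.930 TPM with rmPRL (log2 difference 0.17, limma adjusted p = 0.210), with groups that did not overlap. Separation in this direction held for 1 of these 10 genes and for 1.49% of all genes tested. Hif1a, the main hypoxia factor, was at 59.9 ± 13.5 and 68.7 ± 5.88 TPM (limma adjusted p = 0.419). Of 24 genes that hypoxia factors induce besides Vegfa, 14 were higher and 10 lower, with a median log2 difference of 0.04, and 0 passed, with 2 higher and 2 lower at an unadjusted p under 0.05. Car9, a carbonic anhydrase and a standard hypoxia marker, was higher in the mean at 21.6 ± 1.98 and 28.0 ± 3.35 TPM (limma adjusted p = 0.170), overlapping through rmPRL 1. Kdm3a, a histone demethylase induced in hypoxia, was lower at 49.6 ± 2.65 and 42.0 ± 3.96 TPM (limma adjusted p = 0.195).

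Signal relay and neighbouring vessel systems likewise held no gene past the threshold. For comparison, 43.5% of all genes tested had a higher mean and 6.14% were higher at an unadjusted p under 0.05. Of 28 tested adaptors and kinases that relay VEGF receptor signals, 20 were higher and 8 lower in the mean, 4 of the former at an unadjusted p under 0.05, with a median log2 difference of 0.04. Cdc42, a GTPase of cell shape and movement, was at 266 ± 17.1 and 316 ± 21.8 TPM (log2 difference 0.25, limma adjusted p = 0.171), higher in every rmPRL library than in every saline library. Such separation held for 1 of the 28 genes and for 1.49% of all genes tested. Of 10 tested genes that Vegfa induces in endothelial cells, 5 were higher and 5 lower, and 0 had an unadjusted p under 0.05. All 6 tested members of the angiopoietin and Tie system, which steadies vessels beside VEGF, had higher means. Of these, Tek, Tie1 and Ptprb are also among the blood endothelium markers, and Ptprb is also among the signal relay genes. Tie1, an endothelial receptor, had the smallest p of the angiopoietin and Tie list (limma adjusted p = 0.462). It ran from 4.22 to 9.08 TPM with saline and from 6.69 to 10.3 TPM with rmPRL.

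The ligands' processing enzymes and the neuropilins' other partners also gave no gene past the threshold. Among all genes tested, 43.5% were higher in the mean. Of 7 tested genes that cleave or activate Vegfc and Vegfd, 2 were higher and 5 lower; Ctsd, a protease that can cleave both, was at 433 ± 35.4 and 387 ± 34.7 TPM (limma adjusted p = 0.320). Adamts3, the main activating protease of Vegfc, lay between 0.254 and 0.667 TPM in all libraries, and its partner Ccbe1 had a median of 0.502 TPM and reached 4.53 TPM in rmPRL 2. Of 13 tested semaphorins and plexins, 7 were higher and 6 lower, and Plxnb1 had the smallest p, at 106 ± 12.7 and 90.7 ± 10.5 TPM (limma adjusted p = 0.304). Of the 6 PDGF ligands and receptors, relatives of the VEGF family, 3 were higher and 3 lower, and 0 passed in limma, with 0 at an unadjusted p under 0.05.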

How the data were processed

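RNA of 10 libraries was measured, 5 per treatment; groups, replicate numbers and estrous stages are from the labels. Per the labels' protocols, libraries were made with a stranded mRNA kit (Illumina TruSeq). Trimming with Trimmomatic, alignment to mm10 with HISAT2 and counting with featureCounts are stated in the design text and in the submitters' processing notes. The authors deposited TPM under the name scaled TPM; the sources used here do not give how these were made, the strand setting or the annotation. Because TPM are not counts, no count model was run.

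Of 54256 identifiers, 53525 had an entry in the reference annotation table, which gave names to 2645 of the 2654 rows lacking one. Each member had 1 row. Coordinates are those of GENCODE vM21 on GRCm38; promoter sequences are from RefSeq, where 10 of 10 members matched. Genes reaching 1 TPM in 5 or more libraries were fitted on log2(TPM + 1) with limma 3.58.1 in R 4.3.3 (eBayes with trend and robust estimation, group as the only term). This scale understates changes of low genes. The fit was tested on simulated data. Other pseudocounts, filters, scalings, weights, a replicate block, marker scores as covariates and libraries left out were tried as alternatives. The members, gene lists and tests were chosen with earlier results of these data known. Some genes belong to several lists, such as Sox17, Gja1, Pdgfra and Pdgfrb, so the lists are not independent. Genes named are the members, up to 4 genes of a list by smallest p and its 2 most abundant, and the 3 genes most like Vegfa, Flt1, Kdr and Flt4 in library order; for the last, pseudogenes, genes with Gm, Rik or no names, and genes with a mean under 5 TPM were left out. Prox1, Stab2, Adamts3, Ccbe1, Fshr, Cyp19a1 and Inhba were named after their values were seen. Figures were drawn with matplotlib 3.10.9.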

Additional observations from a re-analysis of the deposited data

Results flagged for a closer look

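Vegfc in rmPRL library 2 stood at 2.90 TPM, far from the other 4 rmPRL libraries at 0.832 to 1.41 TPM. The gap to the nearest was 0.720 of the group's range, above Dixon's 95% critical value for 5 samples. This was 1 of 20 combinations of member and group examined, and chance flags about 1 in 20. The same library is the one labelled diestrus and has 494 TPM of luteal and theca markers.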

How the results depend on the processing

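Over all alternatives, 230 of 245 member values kept their direction and their side of the threshold, 14 changed sign and 1 passed it. The number of members past the threshold was 0 except with array weights, where it was 1 (Pgf). The number of genes past the threshold was 4 and moved to 270 with array weights, 8 with the luteal and theca score as a covariate, 2 with the replicate block, and 1 with the blood endothelium score, with or without Sox17 (leaving out Sox17 was chosen after the data were seen). It was 0 with no filter on low values, with the fibroblast score and without saline 4 and rmPRL 2 (limma; 3276, 1295 and 2081 genes at an unadjusted p under 0.05). Leaving out single libraries gave 1 to 17 genes: 17 without rmPRL 1, 7 without rmPRL 3, 2 without saline 1 or rmPRL 4, and 1 without saline 3, saline 5, rmPRL 2 or rmPRL 5. With the blood endothelium score the log2 difference of Vegfc was -0.14, of Nrp1 -0.030 and of Nrp2 -0.089 (-0.14, -0.032 and -0.099 without Sox17). With the fibroblast score it was -0.11 for Vegfc, -0.072 for Vegfd, -0.025 for Flt1, -0.12 for Nrp1 and -0.10 for Nrp2. With single libraries left out Vegfc ran from -0.12 (without rmPRL 2; -0.03 without saline 3) to 0.19, and Nrp2 from -0.00061 to 0.43. The causes were not tested. Vegfa ran from 0.17 to 0.25 over all alternatives (limma adjusted p from 0.0632 to 0.62), and Kdr from 0.17 to 0.53 (0.102 to 0.747). The share of lower genes at an unadjusted p under 0.05 was 61.7% with TPM as deposited, 50.4% with TMM scaling, 47.5% with quantiles made equal and 47.3% with totals set on genes other than mitochondrial ones and the 50 most abundant; the members' directions were the same under all of these. Same-numbered libraries were not treated as paired in the main fit. The correlation of their deviations ran from -0.248 to 0.108, and 1 of 5 saline libraries was nearest to its own number. These values cannot show whether same-numbered libraries were handled together. The replicate block changed no member's call. A filter of 5 TPM left out Vegfc, Pgf, Flt4 and Nrp2. The lack of read counts limits the low members.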

Other observations

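The ratios of Vegfd to Vegfc and of Nrp1 to Nrp2 were lowest in saline 4 and rmPRL 2, the libraries high in ovarian steroid-making genes. Other ratios between members did not set both of these libraries apart. Vegfa to Vegfb was 2.35 in saline 4 and 2.73 in rmPRL 2, within a range of 2.06 to 3.12 over all libraries. Kdr to Flt1 was 1.31 in saline 4 and 1.57 in rmPRL 2, with rmPRL 5 at 1.47. The ratio of Vegfd to Vegfc was 2.80 in saline 4 and 2.85 in rmPRL 2, and between 5.50 and 9.30 in the other 8 libraries. The ratio of Nrp1 to Nrp2 was 4.84 in saline 4 and 3.25 in rmPRL 2, against 6.24 to 8.69 elsewhere. Markers of ovarian granulosa cells differed between these libraries. Amh was at 47.7 TPM in rmPRL 2 and at 1.82 TPM in saline 4, below saline 3 at 4.48 TPM. Inha was at 209 TPM in rmPRL 2 and 128 TPM in saline 4, against a median of 12.6 TPM over the 10 libraries. Fshr, Cyp19a1 and Inhba were highest in saline 4, at 1.44, 0.449 and 2.72 TPM. The part of ovarian tissue in these ratios was not tested.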
